A study of Mus musculus with 6 samples.

Results

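The genes described here are 10 histone lysine demethylases, Kdm6a, Kdm6b, Kdm1a, Kdm2a, Kdm3a, Kdm3b, Kdm4a, Kdm4c, Kdm5a and Kdm5b, found by gene symbol among the 23412 genes of an RNA-seq table of undifferentiated mouse embryonic stem cells (mESCs). The 3 R1 libraries came from the parental wild type line and the 3 HN libraries from an Htt-/- line, in which both copies of Htt, the gene of the huntingtin protein, lack the promoter and exon 1. Both lines are of strain 129Sv, and both were kept without feeder cells on gelatin in serum medium with leukemia inhibitory factor (LIF) and the kinase inhibitors SU5402, PD184352 and CHIR99021. Replicates 1, 2 and 3 of each line were collected on the same 3 dates. Each genotype is represented by 1 line, so that the loss of Htt and any other difference between these lines cannot be told apart.

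Histone lysine demethylases remove methyl groups from histone tails and so reverse the work of histone methyltransferases. Kdm1a is an amine oxidase that uses FAD, and the others named here are Jumonji enzymes that need iron and 2-oxoglutarate. In ES cells, methylation of H3K4 marks active and primed promoters and enhancers, H3K27 methylation is laid down by Polycomb at silent developmental genes, and H3K9 methylation marks heterochromatin and silent repeats. Kdm6a (also called Utx) is an X-linked H3K27 demethylase and a subunit of the MLL3/MLL4 methyltransferase complexes, Kdm6b (Jmjd3) is its autosomal paralogue, and Uty is the Y-linked counterpart of Kdm6a, which has little demethylase activity.

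Values are read counts per gene that the authors divided by a size factor for each library (normalized counts). The libraries held 1640391 to 3866717 reads on genes, and Htt, the targeted gene, fell from 229 ± 29.0 in R1 to 43.5 ± 22.0 in HN (SD, n = 3; log2 fold change -2.52, limma adjusted p = 0.0141). The 7 ES cell markers Pou5f1, Nanog, Sox2, Zfp42, Esrrb, Klf4 and Tfcp2l1 summed to 11198 to 15217 in R1 and 12967 to 17490 in HN. Markers of other cell types were low, with sums of 27.4 to 119 in R1 and 26.2 to 114 in HN for primitive endoderm (4 genes), 30.3 to 80.9 and 8.51 to 50.9 for fibroblast feeders (4 genes), 52.6 to 116 and 84.5 to 206 for trophoblast (3 genes) and 29.6 to 111 and 44.7 to 81.2 for neural cells (3 genes). With the replicate block, Nanog, Esrrb, Klf4, Tfcp2l1 and the trophoblast marker Eomes were higher in HN, and Zfp42 and the fibroblast marker Thy1 were lower. Their part in the results for the demethylases was not tested. In bulk RNA, a change in the share of cells that express a gene and a change in the amount per cell cannot be told apart.

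The result that stands out is the near absence of Kdm6a reads in HN while the Uty counts of the lines overlap, so how far reads of this pair can be told apart matters. The coding sequences of Kdm6a (4272 bases; gene at chrX:18162575-18279936, plus strand) and Uty (3636 bases; gene at chrY:1096861-1245759, minus strand) are identical at 82.9% of 3619 aligned bases in GRCm38. Their longest identical coding run has 61 bases, and the lines that follow hold it with 45 bases on either side, 5′ to 3′ on the coding strand, with the 4 bases that differ in capitals. The stretch joins parts of 2 exons in each gene, at chrX:18246397-18247105 and chrY:1169127-1169984.
Kdm6a, coding bases 1181 to 1331: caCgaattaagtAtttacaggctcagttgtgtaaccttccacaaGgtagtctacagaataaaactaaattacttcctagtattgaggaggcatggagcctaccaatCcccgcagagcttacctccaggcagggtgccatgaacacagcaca
Uty, coding bases 1160 to 1310: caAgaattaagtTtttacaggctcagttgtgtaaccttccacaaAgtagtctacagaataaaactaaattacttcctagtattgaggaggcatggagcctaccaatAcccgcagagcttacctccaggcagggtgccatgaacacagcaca
Reads were pairs of 50 bases, and 12 of the 8565 different 50-base stretches in Kdm6a transcripts (0.14%) are also found in transcripts of another gene, all in Uty. For Kdm6b, Kdm1a, Kdm3a, Kdm4a, Kdm4c and Kdm5b there were 0 shared stretches, and for Kdm2a, Kdm5a and Kdm3b they made up 0.213%, 0.403% and 0.861%. Stretches were compared on the transcript strand only. The libraries do not mark strand, and overlap with transcripts of the opposite strand was not checked.

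The promoters of Kdm6a and Uty are also shown (RefSeq, GRCm38.p6, 250 bases before to 50 bases after the start site, 5′ to 3′ on the strand of the gene). They are a description, and a part of these sequences in the difference between the lines was not tested. Capitals mark the E-box CACGTG, a palindrome that reads alike on both strands. The Kdm6a promoter lies at chrX:18162325-18162624 and that of Uty at chrY:1245710-1246009.
Kdm6a promoter: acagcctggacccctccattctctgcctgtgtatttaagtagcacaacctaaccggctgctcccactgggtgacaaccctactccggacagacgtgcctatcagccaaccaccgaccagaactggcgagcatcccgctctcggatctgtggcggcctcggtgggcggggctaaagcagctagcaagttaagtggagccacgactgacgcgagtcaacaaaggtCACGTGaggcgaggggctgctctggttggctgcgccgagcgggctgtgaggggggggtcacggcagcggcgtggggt
Uty promoter: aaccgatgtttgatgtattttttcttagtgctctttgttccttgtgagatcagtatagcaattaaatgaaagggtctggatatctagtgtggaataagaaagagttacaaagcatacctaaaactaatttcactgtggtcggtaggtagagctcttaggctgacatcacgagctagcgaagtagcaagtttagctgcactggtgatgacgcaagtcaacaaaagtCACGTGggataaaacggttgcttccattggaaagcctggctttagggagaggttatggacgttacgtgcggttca
The E-box begins 27 bases before the start site in Kdm6a and 25 bases before it in Uty, and 2349 of 32851 mouse promoters of the same length (7.15%) hold it. Their longest common run is the 10 bases agtcaacaaa, just before the E-box in both. The Kdm6a promoter holds 21 CG pairs, and 24.8% of promoters hold as many or more. The Uty promoter holds 10, and 43.5% hold as many or more. Promoter entries were found for 6 of the 10 demethylases.

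Whether the lines differ in demethylase mRNA was asked first. Of the 10 genes, all of which passed the filter on low values, Kdm6a fell in HN and no other passed when the lines were compared without regard to date (limma, Benjamini-Hochberg adjusted p under 0.05 over 14276 genes). That is 1 of 10, where 0.245% of all genes tested passed. With the collection date as a replicate block (the lines paired by date), 3 of 10 passed, where 9.48% of all genes did. These were Kdm6a, lower in HN, and Kdm3b and Kdm5b, both higher in HN, where 5.46% of all genes were called higher. Kdm6a was put on the list with its fall in HN already known from these data. Counts between the lines that include it thus cannot show that demethylases differ more often than other genes. The log2 fold change, given on the log2(normalized count + 1) scale as HN minus R1, had a median of 0.18 over the 10 against -0.01 over all genes tested.

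**Figure D1:**
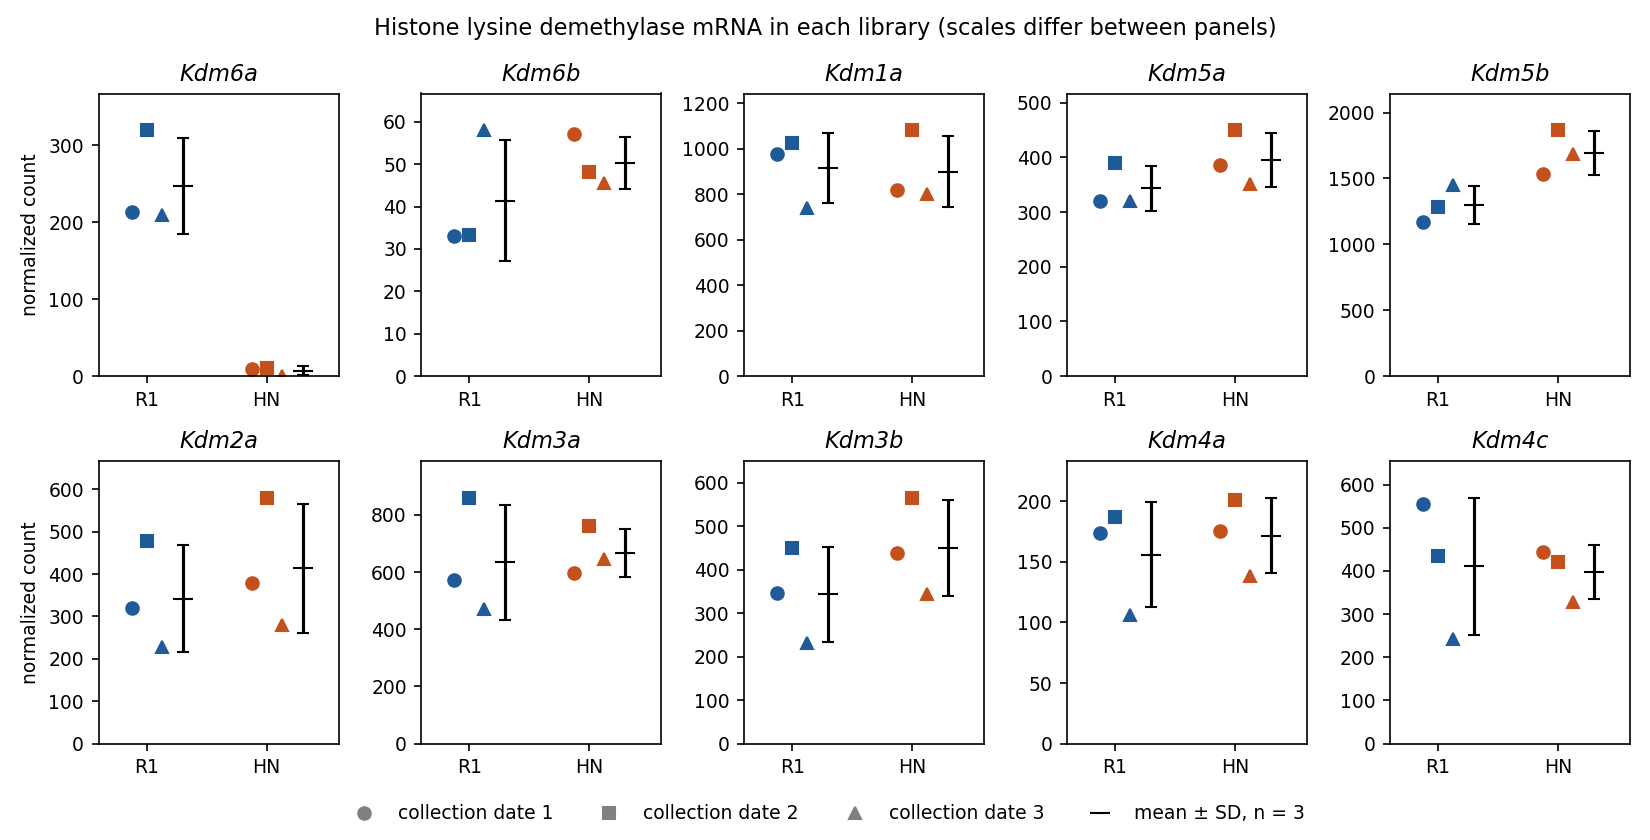
Normalized counts (vertical axes, which start at 0 and differ between panels) of the 10 demethylases in each R1 (blue) and HN (orange) library, with collection dates 1, 2 and 3 as circles, squares and triangles and the mean ± SD (n = 3) in black. Kdm6a lies at 0 to 10.6 in HN against 209 to 320 in R1, Kdm5b is the other gene whose lines do not overlap, and most panels show the same dates high or low in both lines.

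Of the H3K27 demethylases, Kdm6a was nearly absent in HN and Kdm6b did not pass the test. In R1 replicates 1 to 3, Kdm6a stood at 213, 320 and 209 normalized counts, from 200, 432 and 155 reads. In HN it had 9.73, 10.6 and 0, from 8, 15 and 0 reads, and in HN replicate 3 the value of 3 reads, which a count of 0 allows, is 3.25. Every R1 library was far above every HN library. Its mean of 247 ± 62.8 in R1 was 36.4 times that of HN, 6.79 ± 5.90 (SD, n = 3). The log2 fold change was -5.60 (standard error 0.74, 95% interval -7.22 to -3.99, limma adjusted p = 0.00739, or 3.32e-14 paired by date). The size depends on the library with 0 reads, since the same-date log2 differences were -4.32, -4.78 and -7.71, and it was -6.79 with a pseudocount of 0.1 in place of 1 (limma adjusted p = 0.102). Paired by date, the standard error was 0.35. Limma draws the variance of each gene towards that of genes of similar level. This error and the paired p thus do not rest on the spread of the 3 same-date differences alone. Unpaired, the limma adjusted p was 0.0741 without R1 replicate 1 and 0.455 without date 1.

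Kdm6b (chr11:69398508-69413675), the inducible paralogue that acts on the same mark, had 33.0, 33.3 and 58.0 in R1 and 57.2, 48.2 and 45.5 in HN. R1 replicate 3 was the highest of all libraries and the other R1 libraries were the lowest, so that the lines overlap. Its log2 fold change was 0.32 (standard error 0.29, 95% interval -0.33 to 0.96, limma adjusted p = 1), and paired by date the interval was -0.13 to 0.77 (adjusted p = 0.451). HN was higher on dates 1 and 2 by 0.78 and 0.52 and lower on date 3 by a log2 difference of -0.34. These counts rest on 31 to 68 reads a library, and a gain in HN of the size the upper bound gives could not be told from no change.

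Uty had 208, 235 and 183 in R1 and 249, 269 and 175 in HN, so the lines overlap. Its log2 fold change of 0.13 (standard error 0.22, limma adjusted p = 1, or 0.579 paired by date) did not pass. Set on a common scale, as normalized counts per kb of exon of the coding transcripts, Kdm6a fell from 41.6 ± 10.6 in R1 to 1.14 ± 0.99 in HN, Uty had 37.7 ± 4.63 and 41.8 ± 8.94, and Kdm6b had 6.22 ± 2.15 and 7.56 ± 0.92 (SD, n = 3). The sum of the 3 genes per kb was 85.5 ± 13.6 in R1 and 50.5 ± 10.4 in HN, a ratio of 0.591. For Kdm6a and Kdm6b alone it was 47.9 ± 9.64 and 8.70 ± 1.72, a ratio of 0.182. Kdm6a thus made up 48.2% of the family's mRNA per kb in R1 and 2.02% in HN, Uty 44.3% and 82.7%, and Kdm6b 7.53% and 15.3%. These shares depend on the length used. With the exons of all annotated transcripts, Kdm6a, Uty and Kdm6b had means of 29.5, 21.3 and 5.96 per kb in R1. In HN they had 0.81, 23.6 and 7.23.

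**Figure D2:**
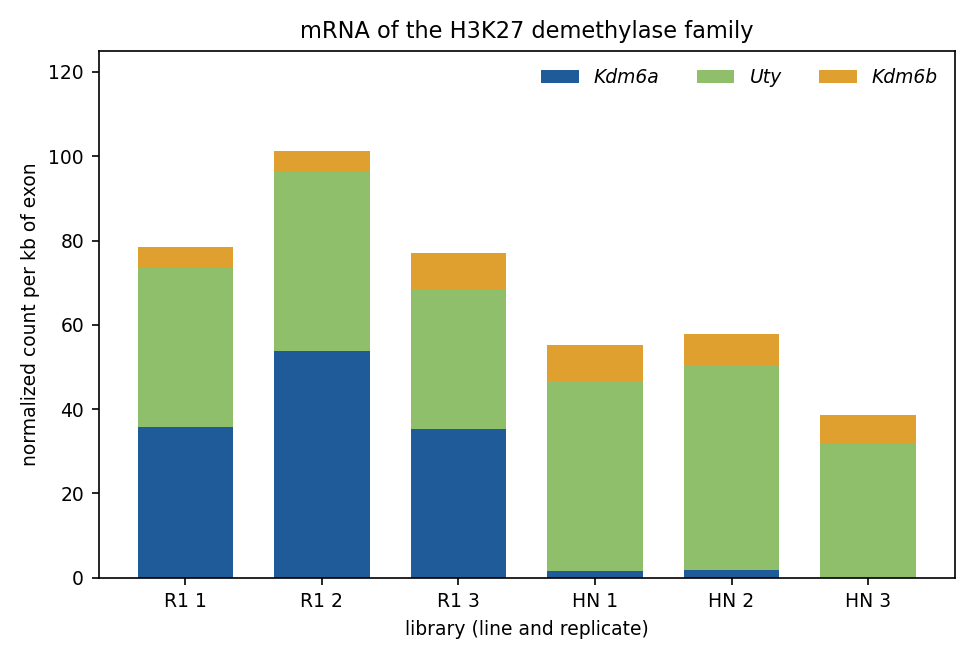
Stacked bars of normalized counts per kb of exon (vertical axis) for Kdm6a (blue), Uty (green) and Kdm6b (orange) in each of the 6 libraries. The blue part, 35.2 to 53.8 in R1, shrinks to 0 to 1.79 in HN, while the green and orange parts of the 2 lines overlap.

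The genes next to Kdm6a on the X chromosome were read out as well. Within 1 Mb of its start, Fundc1 (a mitochondrial outer membrane protein that acts in mitophagy) was the 1 other gene with enough reads to be tested. It had 65, 99 and 47 reads in R1 and 2, 6 and 0 in HN, with a log2 fold change of -4.73 (limma adjusted p = 0.00669). Efhc2, which overlaps the edge of this window, had 6, 4 and 7 reads in R1 and 0 in each HN library, which allows 3 reads a library, and Dusp21, 4930578C19Rik, Mir221 and Mir222 had at most 2 reads in any library. Among the other tested genes within 5 Mb, Maoa, 1.54 Mb before Kdm6a, had a log2 fold change of -5.69, and the 95% intervals of the rest included 0.

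**Figure D3:**
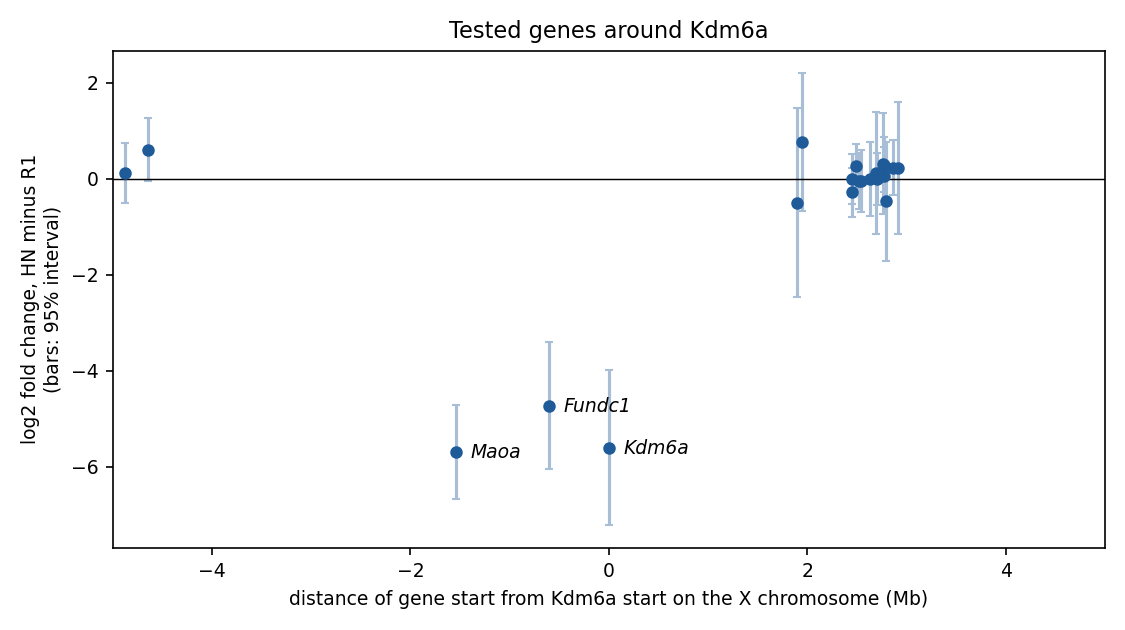
Log2 fold change of HN against R1 with its 95% interval (vertical axis) for each tested gene within 5 Mb of Kdm6a, by distance of the gene start from that of Kdm6a in Mb (horizontal axis). Maoa (-5.69), Fundc1 (-4.73) and Kdm6a (-5.60) lie far below 0, and the intervals of the tested genes on both sides of them include 0.

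Kdm6a was also set against every other tested gene by its pattern over the 6 libraries, on the log2(normalized count + 1) scale. Fundc1 was most like it (Pearson r = 0.99), followed by Pard6a (0.99), 2410141K09Rik (0.98), Dynlt1b (0.98) and Acaa2 (0.97), and 34 genes had an r above 0.95. The points share their libraries and the line difference, and the r is a description. The r takes no account of size, and the log2 fold changes of Pard6a, 2410141K09Rik, Dynlt1b and Acaa2 were -0.95, -0.55, -1.07 and -0.70.

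Among the H3K4 demethylases, Kdm5b was higher in HN on every date, Kdm5a was too but did not pass in either comparison, and Kdm1a had about the same mean in both lines. Kdm5b (Jarid1b, chr1:134560171-134635285), which removes H3K4me3 and H3K4me2 and is abundant in ES cells, had 1167, 1281 and 1452 in R1 and 1537, 1865 and 1682 in HN. All HN libraries were above all R1 libraries. Kdm6a and Kdm5b were the 2 of 10 whose lines did not overlap, where 10.8% of all genes tested did not. The mean of Kdm5b went from 1300 ± 143 to 1695 ± 164 (SD, n = 3), a log2 fold change of 0.38 (95% interval -0.01 to 0.78) that did not pass without the block (limma adjusted p = 0.881) and passed with the replicate block (0.20 to 0.56, adjusted p = 0.0034). The same-date log2 differences were 0.40, 0.54 and 0.21, and with date 2 left out the blocked comparison called Kdm6a alone.

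Kdm5a (chr6:120364124-120444574), a second H3K4 demethylase of the same family, had 320, 391 and 319 in R1 and 387, 449 and 352 in HN. HN was higher on each date, yet the lines overlap because R1 of date 2 exceeds HN of dates 1 and 3. Its log2 fold change was 0.20 (95% interval -0.21 to 0.62, limma adjusted p = 1, or 0.249 paired by date). Kdm1a (Lsd1, chr4:136550540-136602723), which removes mono- and dimethyl groups from H3K4 within the CoREST complex, had 975, 1028 and 740 in R1 and 819, 1081 and 800 in HN. The means, 914 ± 153 and 900 ± 157, were close, and the log2 fold change of -0.02 had an interval of -0.21 to 0.17 with the replicate block.

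The H3K9 demethylases showed 1 gene that differed once dates were matched. Kdm3b (chromosome 18, 34777047 to 34838660), which acts on mono- and dimethylated H3K9, had 347, 451 and 232 in R1 and 438, 565 and 344 in HN. HN was higher on every date by log2 differences of 0.34, 0.33 and 0.57, while the spread between dates made the lines overlap. Its mean went from 343 ± 109 to 449 ± 111 (SD, n = 3). The line difference of 0.41 on the log2 scale (standard error 0.26, limma adjusted p = 1) had a standard error of 0.10 with the replicate block (95% interval 0.20 to 0.62, adjusted p = 0.00777). Its paralogue Kdm3a (chr6:71588972-71632990), a hypoxia-inducible enzyme with the same substrates, had 573, 860 and 470 in R1 and 596, 761 and 644 in HN. It was higher in HN on dates 1 and 3 and lower on date 2, and its log2 fold change of 0.11 had an adjusted p of 0.6 with the replicate block.

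Kdm4a and Kdm4c remove trimethyl groups from H3K9 and H3K36. Kdm4a (chr4:118136957-118180043) had 174, 187 and 106 in R1 and 175, 201 and 139 in HN, a log2 fold change of 0.16 (95% interval -0.39 to 0.72, limma adjusted p = 1, or 0.52 paired by date). Kdm4c (chr4:74242497-74405860), which is known to help keep ES cells undifferentiated, had 556, 435 and 241 in R1 and 444, 420 and 327 in HN. HN was lower on dates 1 and 2 by log2 differences of -0.32 and -0.05 and higher on date 3 by 0.44, and the log2 fold change of 0.02 (95% interval -0.59 to 0.63) had an adjusted p of 0.95 with the replicate block. The H3K36 demethylase Kdm2a (chr19:4314419-4398285), which binds unmethylated CpG islands, had 319, 479 and 229 in R1 and 380, 580 and 281 in HN. Its same-date log2 differences of 0.25, 0.28 and 0.29 were nearly equal, but the log2 fold change of 0.27 did not pass with the replicate block (95% interval 0.06 to 0.48, adjusted p = 0.0952).

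Kdm2a, Kdm3b, Kdm4a, Kdm5a and Kdm5b were higher in HN on all 3 dates. That is 5 of 10, where 20.3% of all genes tested were, and the smallest of these log2 differences was 0.0139, for Kdm4a on date 1. At an unadjusted p under 0.05 without the block, 1 of the 10 and 843 of all genes passed. Kdm6a was also the 1 gene of the 10 whose log2 fold change exceeded 1 in size, the fold threshold of the study.

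**Figure D4:**
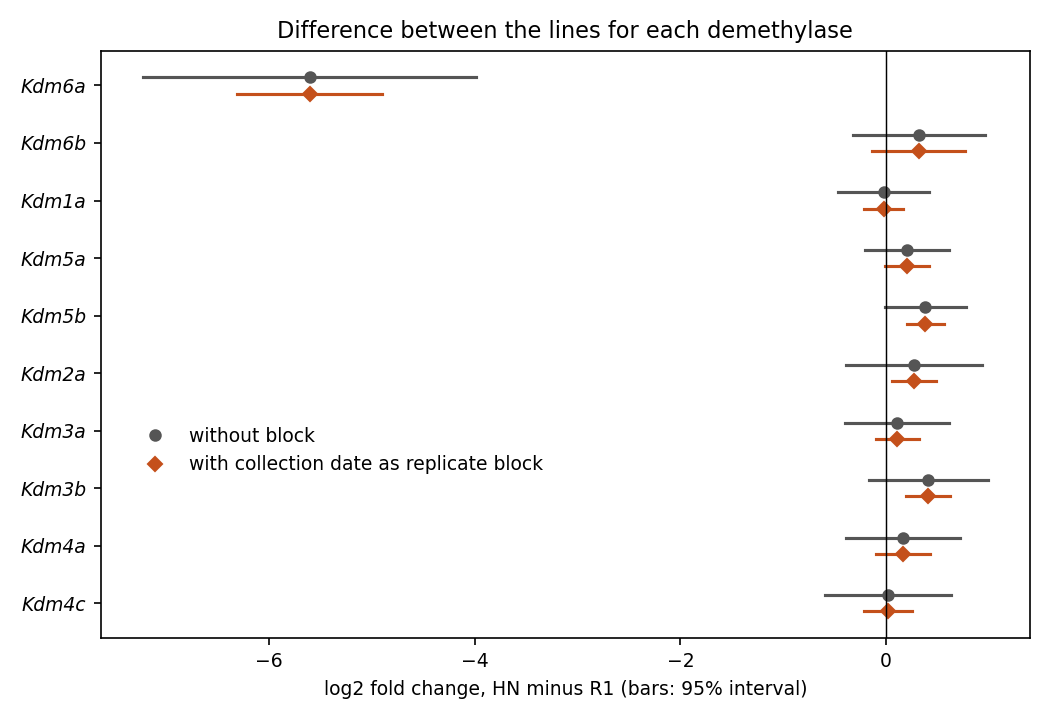
Log2 fold change of HN against R1 (horizontal axis) for each demethylase, with its 95% interval from limma without a block (grey circles) and with the collection date as replicate block (orange diamonds). Kdm6a is at -5.60 and the other 9 lie between -0.02 and 0.41, and the intervals of Kdm3b, Kdm5b and Kdm2a leave 0 out with the block.

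How far demethylase mRNA varied between collection dates was asked next. The dates differed for 7 of the 10 (limma F test of date beside line, adjusted p under 0.05), where 46.0% of all genes tested did: Kdm6a, Kdm1a, Kdm2a, Kdm3a, Kdm3b, Kdm4a and Kdm4c. Kdm2a varied most of those besides Kdm6a, with date 3 below date 2 by a log2 difference of -1.05 (limma adjusted p = 5.5e-07). For Kdm3b and Kdm4a this difference was -0.83 and -0.67, and Kdm4c fell on each later date and ended -0.82 from date 1 (limma adjusted p = 7.23e-05). The value of Kdm6a, -1.73 from date 1 to date 3, rests on the HN library with 0 reads. Kdm5b, Kdm5a and Kdm6b did not pass, with limma adjusted p of 0.144, 0.0768 and 0.511, and Kdm5b and Kdm6b were the 2 that were higher on date 3 than on date 1.

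The median log2 difference over the 10 genes was 0.24 from date 1 to date 2 and -0.58 from date 2 to date 3. Over all genes tested these medians were 0.01 and -0.07. Depth differed between dates as well, and the date 2 libraries were the deepest of each line (3604420 and 3866717 reads). The shallowest was that of date 3 in R1 (1640391 reads) and that of date 1 in HN (2078543 reads). The date 3 libraries had reads on the most genes of each line (20675 and 20542), although they were not the deepest. Of the markers tested, 5 of 7 ES cell, 3 of 4 primitive endoderm and 3 of 3 fibroblast markers passed the test of dates. So did 2 of 2 trophoblast markers, 3 of 3 neural markers and 21 of 32 Hox genes, where 46.0% of all genes tested passed. Many of these counts are low, with at most 39 reads in a library for a primitive endoderm marker and 38 for a Hox gene. From date 2 to date 3, the 7 ES cell markers differed by -0.80 (Pou5f1) to -0.002 (Klf4) on the log2 scale. The 4 primitive endoderm markers differed by 0.96 (Dab2) to 2.33 (Gata4), and the tested trophoblast markers Eomes and Cdx2 by -1.81 and 0.60. These genes were named here after their values were seen. The part of depth and of these genes in the date differences of the demethylases was not tested.

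**Figure D5:**
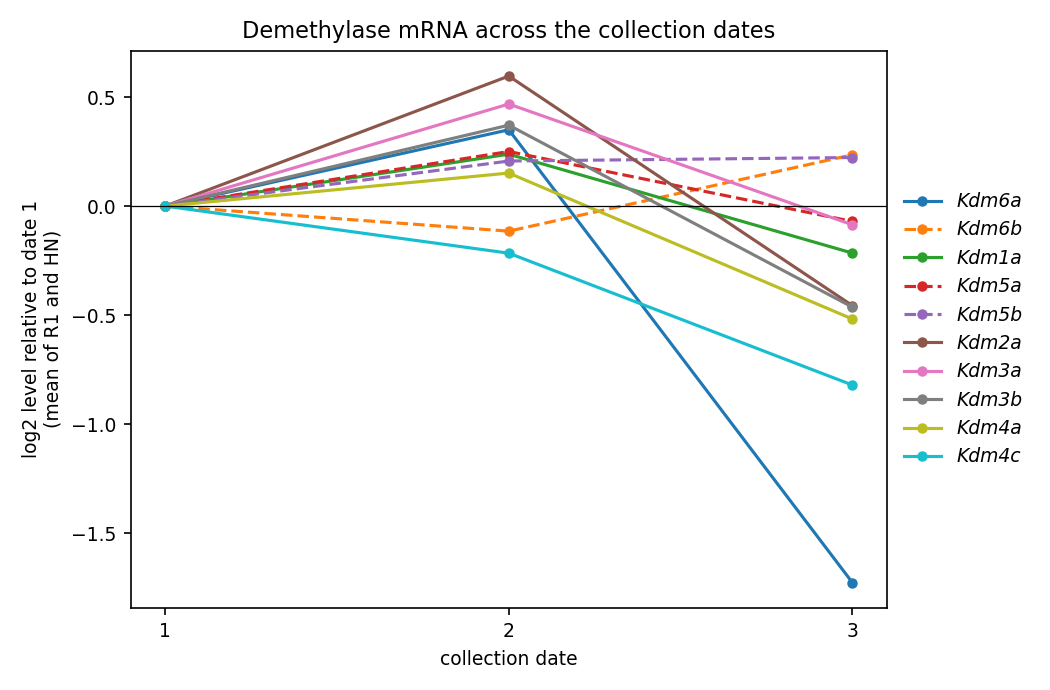
Log2 level of each demethylase on dates 2 and 3 relative to date 1 (vertical axis), as the mean of the R1 and the HN library of each date (horizontal axis), with solid lines for the 7 genes that passed the test of dates and dashed lines for the others. Most lines rise to date 2 and fall to date 3, and Kdm6a ends at -1.73 through the HN library without reads.

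Levels were then compared between the genes, as normalized counts per kb of exon of the coding transcripts. In R1, Kdm1a was highest with 298 ± 49.9, followed by Kdm5b (141 ± 15.6), Kdm3a (127 ± 40.3), Kdm4c (94.6 ± 36.5), Kdm3b (49.4 ± 15.7), Kdm6a (41.6 ± 10.6), Kdm2a (35.2 ± 13.0), Kdm5a (31.4 ± 3.73), Kdm4a (30.8 ± 8.54) and Kdm6b (6.22 ± 2.15; SD, n = 3). Of these neighbours in order, Kdm1a and Kdm5b did not overlap between libraries, nor did Kdm4a and Kdm6b, and the other 7 neighbouring pairs overlapped. In HN, Kdm6a was last with 1.14 ± 0.99, just below Kdm6b. With the exons of all annotated transcripts as the length, which was chosen after seeing the data, the first 4 places and the last in R1 were the same and Kdm3b moved from 5 to 7.

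The other histone demethylases and related Jumonji proteins, 18 genes of which 16 were tested, had 0 that passed without the block by limma, edgeR or DESeq2 and 1 at an unadjusted p under 0.05. With the replicate block, 2 of 16 passed by limma, both higher in HN, where 5.46% of all genes tested were called higher and 9.48% in either direction, and edgeR with the block called these and Phf8. Kdm2b, the paralogue of Kdm2a that brings a variant Polycomb complex to CpG islands, had 146, 235 and 117 in R1 and 277, 466 and 181 in HN, higher on each date, with a log2 fold change of 0.84 (limma adjusted p = 0.752, or 4.79e-06 paired by date). Jmjd1c, a relative of Kdm3a and Kdm3b, rose from 1027 ± 218 to 1257 ± 246 (log2 fold change 0.29, limma adjusted p = 0.0381 paired by date). Kdm1b, the paralogue of Kdm1a, was the 1 of 16 whose lines did not overlap, where 10.8% of all genes tested did not. It had 145 ± 11.1 in R1 and 114 ± 6.25 in HN and did not pass (limma adjusted p = 0.118 paired by date).

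Partners of the demethylases were counted next. Of the 9 tested genes of the MLL3/MLL4 complexes in which Kdm6a sits, 0 passed by limma without or with the replicate block. Of all genes tested, 0.245% and 9.48% did, so 0 of 9 does not show that the complexes are unchanged. At an unadjusted p under 0.05 by limma there were 0 without and 1 with the block. By edgeR with the block, 1 was called, Ncoa6, where 1605 of all 14276 genes were. Of 12 tested partners of Kdm1a, Rcor1 (CoREST) and Zmym2 were higher in HN with the replicate block, 2 of 12 where 5.46% of all genes tested were called higher. Rcor1 had 49.0, 60.7 and 40.4 in R1 and 90.0, 75.8 and 61.7 in HN (log2 fold change 0.59, limma adjusted p = 0.0344 paired by date), and Zmym2 had a log2 fold change of 0.33 (limma adjusted p = 0.0229 paired by date).

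The methyltransferases that lay down the same marks were counted against the 9.48% of all genes tested that passed with the replicate block. For H3K4 (6 genes), H3K9 (6 genes) and H3K27 (Ezh1 and Ezh2), 0 passed by limma, edgeR or DESeq2, and 0 had an unadjusted p under 0.05 by limma with or without the block. Of 6 H3K36 methyltransferases, Nsd1 was higher in HN (log2 fold change 0.35, limma adjusted p = 0.0105 paired by date). Of 5 X-linked genes that have a Y-linked counterpart, Usp9x (0.28, adjusted p = 0.0324) and Zfx (0.47, adjusted p = 0.0105) were higher in HN by limma with the replicate block, where 5.46% of all genes tested were called higher, and of 4 tested Y-linked genes 0 passed by limma or edgeR in either comparison, with 0 at an unadjusted p under 0.05.

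Hox genes, which carry H3K27 methylation in ES cells and are known targets of Kdm6a during differentiation, were near the detection limit. Of 39 Hox genes 32 were tested, and none had more than 38 reads in a library. By limma or edgeR without or with the replicate block, or by DESeq2 without it, 0 passed. Limma called 0.245% of all genes tested without and 9.48% with the block. At an unadjusted p under 0.05 by limma there were 0 without and 1 with the block. Counts this low could not show whether these genes changed. Their summed normalized count was 165 to 685 in R1 and 178 to 517 in HN.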

How the data were processed

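The mRNA of 3 R1 and 3 HN mESC cultures was sequenced with Illumina TruSeq v2 libraries, which do not mark strand, as paired reads. The deposited signal values are gene counts that the authors obtained with STAR on mm10, Picard duplicate removal and HTSeq and then divided by DESeq2 size factors. Versions and gene annotation are not given in the sources used here. Multiplied by its size factor, 100% of values came out as whole reads (tolerance 0.01), and these were recovered. Of the row names, 27 are dates, a spreadsheet conversion of gene symbols, and none is used here.

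Lines were compared with limma 3.58.1 in R 4.3.3 (variance trend) on log2(normalized count + 1) for the 14276 genes with a mean of at least 5. Fold changes are on this scale, which understates changes of low genes. The p-values were adjusted by Benjamini-Hochberg over all genes tested, and 35 genes passed without and 1354 with the replicate block. edgeR 4.0.16 and DESeq2 1.42.0 on recovered reads were alternatives, and edgeR called 34 genes, or 1605 with the block, and DESeq2 112. An exact permutation of 3 against 3 libraries cannot give a p below 0.1.

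The labels give replicates of one number the same collection date, which pairs them. Deviations from the line means correlated at 0.25, 0.69 and 0.77 between same-date libraries and at -0.71 to 0.34 between others. R1 of date 1 was closer to HN of date 2 (0.34) than to HN of date 1 (0.25). Deviations within a line cancel out over its libraries, so these values are not independent. Replicates differed beyond sampling noise (chi-square per degree of freedom 5.11 to 10.2).

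The 10 genes, the related lists and the rule for named genes (list genes that pass with or without the block, genes within 1 Mb of Kdm6a, and the 5 genes most like it) were chosen with earlier results of these data known. Kdm1b, Maoa, Phf8, Ncoa6, Pou5f1, Gata4, Dab2 and Cdx2 were named after their values were seen. Older symbols were matched by synonym, such as Mll2 for Kmt2d. Positions, exon lengths and transcripts are from GENCODE M21 on GRCm38, and promoters from RefSeq.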

Additional observations from a re-analysis of the deposited data

How the results depend on the processing

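Across 22 alternatives, of which 16 were planned and 6 leave out both libraries of a collection date and were chosen after seeing the data, the log2 fold change of Kdm6a stayed between -6.79 and -3.98. The number of the 10 genes that passed was 1 in the comparison as reported and 3 (Kdm6a, Kdm3b and Kdm5b) with the replicate block, with edgeR and the replicate block, and with date 1 or date 3 left out and the replicate block, but 1, Kdm6a, with date 2 left out and the block. It was 0 with a pseudocount of 0.1, without the variance trend and with date 1 left out, with 1 gene at an unadjusted p under 0.05 by limma in each. Leaving out 1 library gave 0 to 1, and 0 came from R1 replicate 1. For Kdm6a these settings gave -6.79 (adjusted p = 0.102 by limma) with a pseudocount of 0.1, -5.60 (0.287) without the variance trend, -6.25 (0.455) with date 1 left out, and -6.21 to -4.44 when 1 library was left out, where R1 replicate 1 gave -5.70 (0.0741).

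Values near 0 changed sign in genes that passed in none of these settings. Kdm1a was 0.0931 with date 1 left out, without and with the replicate block, and -0.17 to 0.0696 with 1 library left out. Kdm3a was -0.0593 with date 3 left out, without and with the block, and Kdm4c -0.19. Kdm4c was also -0.0434 with edgeR, -0.0064 with edgeR and the replicate block and -0.0497 with DESeq2. With 1 library left out, Kdm2a spanned -0.0039 to 0.55, Kdm3a -0.0804 to 0.35, Kdm4a -0.0876 to 0.32 and Kdm4c -0.32 to 0.28. Kdm6b kept its sign, with 0.09 to 0.65, and was below the filter at a mean of 50. Over all genes, 35 passed as reported, 1354 with the replicate block, 1605 with edgeR and the block, 112 with DESeq2, 0 without the variance trend, 9 to 56 with 1 library left out, 0, 16 and 38 with date 1, 2 or 3 left out, and 1129, 486 and 1723 with these dates left out and the block. The number of the 10 genes that differed between dates, 7, was 0 without the variance trend. The replicate block changed no other call among the 10. The cause was not tested. Between 1640391 and 3866717 reads a library limit what can be seen in Kdm6b and the Hox genes.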
